A study of Mus musculus with 14 samples.

Results

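Upper and deep layers of undissociated mouse cerebral cortex were compared across all autosomal genes. The comparison used 4 of the 14 RNA-seq libraries of the study, chosen by their column names: 2 of upper layer bulk tissue and 2 of deep layer bulk tissue. Of 32830 genes in the deposited table, 29994 were autosomal, and 21036 of these passed a filter on low values (a value of at least 10 in at least 2 of the 14 libraries) and were tested. The other 10 libraries came from astrocytes sorted by flow cytometry with the Aldh1l1-GFP reporter, which labels astrocytes with a fluorescent protein (3 upper and 3 deep layer libraries), and from the GFP-negative sorted cells, called non-astrocytes (2 and 2).

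All groups were mice of the SW strain on postnatal day 14, and the labels name no treatment. The labels name the reporter for the animals from which astrocytes were sorted and do not say separately whether the bulk tissue animals carried it. The layers were parted by hand, so each side holds whatever the cut left on it, and how many animals went into a library is not stated. The p-values therefore measure the spread between libraries, pooled over the 6 groups of all 14 libraries, sorted cells included. How much of that spread is technical is not known.

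The cerebral cortex is built of layers of excitatory neurons born in sequence, the deep ones first. Neurons of layers 2 and 3 send axons mainly within the cortex, layer 4 receives input from the thalamus, layer 5 sends axons to the brainstem and spinal cord, layer 6 sends axons back to the thalamus, and layer 6b is the remnant of the subplate. During the second week after birth oligodendrocytes wrap axons in myelin, beginning near the white matter below layer 6.

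Values are normalised read counts, the reads per gene divided by 1 size factor per library. The upper layer libraries held 30316765 and 27629762 reads in genes, and the deep layer libraries 23266097 and 29596412. Gm42418, a gene that overlaps ribosomal RNA sequence, took 16.3% and 10.1% of the reads in the upper layer libraries and 15.4% and 14.7% in the deep layer libraries. The library numbered 1 of each layer stood near 0 for the Y-linked gene Eif2s3y (6.45 and 658 in upper layers 1 and 2, 12.9 and 615 in deep layers 1 and 2). The X-linked RNA Xist had 44916 and 22274 in upper layers 1 and 2, and 39717 and 18110 in deep layers 1 and 2. Number 2 of each layer thus held both Eif2s3y and Xist reads. Both layers share this pattern, and each layer difference was taken over both numbers.

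The layer markers separated the libraries. Cux2, a homeodomain transcription factor of upper layer neurons (chromosome 5, 121856366 to 122050102, GRCm38), had 7595 and 7365 normalised counts in upper layers, against 1451 and 2174 in deep layers. Its relative Cux1 (chromosome 5, 136248135 to 136567490) had 16939 and 19052 in upper layers and 5194 and 6119.5 in deep layers. Both upper layer libraries lay above both deep layer libraries for each gene. Fezf2, the transcription factor that specifies neurons projecting below the cortex (chromosome 14, 12342094 to 12348189), had 97.7 and 60.1 in upper layers, against 1348 and 1327 in deep layers. Foxp2, a forkhead factor of layer 6 (chromosome 6, 14901349 to 15441977), had 48.8 and 67.1 in upper layers and 727 and 449.9 in deep layers. Tle4, a transcriptional corepressor of layer 6 (chromosome 19, 14448150 to 14598051), had 628 and 606 in upper layers and 2452 and 2006 in deep layers. These 3 genes stood higher in both deep layer libraries, and so did Mbp, myelin basic protein (chromosome 18, 82475146 to 82585637), at 21890.4 and 19669 in upper layers, against 76246 and 67847 in deep layers.

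Across the 21036 autosomal genes, 34 rose (0.162%) and 66 fell (0.314%) in upper relative to deep layers at an adjusted p below 0.05. The test was limma on log2(value + 1) in 1 model of all 6 groups, with Benjamini-Hochberg adjustment over all 22575 genes kept, autosomal or not. All 100 called genes had libraries that did not overlap between the layers, which was also true of 22.5% of all tested genes with upper layers above and 21.7% with upper layers below. The change was at least 2-fold for 30 of the 34 and 63 of the 66, and for 7.92% of all tested genes in either direction. With 2 libraries a layer, passing the test itself favours large changes. The median log2 difference over all tested genes was 0.00. Exons of 8 of the 34 and 24 of the 66 overlap those of another gene, as do those of 32.6% of all tested genes.

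The size of the lists depended strongly on which libraries set the spread. The median within-group SD on the log2 scale was 0.170 in upper and 0.144 in deep layer bulk tissue, against 0.237 to 0.337 in the 4 sorted groups. Fitted on the 4 bulk libraries alone, limma called 541 higher (2.57%) and 508 lower (2.41%), while leaving out any 1 bulk library in the full model left 2 to 5 higher and 7 to 12 lower. Leaving out replicate 2 of the deep layer astrocytes gave 79 higher and 128 lower. Of the 14 libraries, that library had the highest share of mitochondrial reads, 16.04%, against 7.13% in the next, number 1 of deep layer bulk tissue. It also had the fewest genes detected (23671), and replicate 1 of the upper layer non-astrocytes had the most (30333). The part of library quality in the pooled spread, and so in the length of the lists, was not tested. On whole reads recovered from the deposited values, edgeR called 54 higher (0.257%) and 105 lower (0.499%), and DESeq2 173 higher (0.822%) and 243 lower (1.16%). In what follows a gene counts as called only by the full model, and counts from the bulk libraries alone are given beside it. At the full model's shares a short list would seldom hold a call, so a list without one is not shown to be level.

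**Figure D1:**
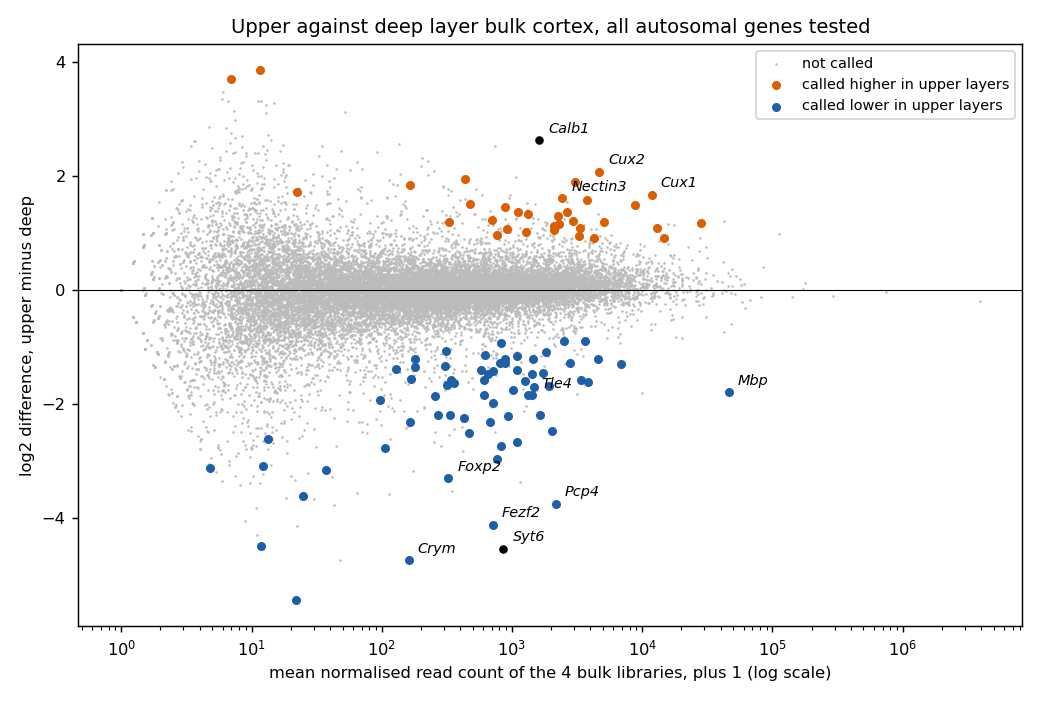
Mean normalised read count of the 4 bulk libraries (horizontal axis, log scale) against the log2 difference, upper minus deep layers, for the 21036 autosomal genes tested. Orange points are the 34 genes called higher and blue points the 66 called lower in upper layers, and the 2 black points are Calb1 and Syt6, which passed the test only in other fits.

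Genes of layer 2/3 neurons led the upper side. Of 18 such genes tested, 5 rose (Cux2, Cux1, Rasgrf2, Nectin3 and Pou3f2), none fell, and the median log2 difference was 1.16. The 4 bulk libraries alone called 13 higher and 1 lower, against 2.57% and 2.41% of all tested genes. Of all tested genes the full model called 0.162% higher and 0.314% lower. Cux2 was 4.21-fold higher in upper layers (log2 2.07, SE 0.26, adjusted p = 0.00201), and Cux1, whose exons overlap the gene Gm16599, 3.19-fold higher (log2 1.67, SE 0.17, adjusted p = 0.000253).

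Nectin3, a cell adhesion molecule of synaptic junctions, had the smallest adjusted p of the genes that rose. Its values were 3672 and 3649 in upper layers and 1143 and 1248 in deep layers, 3.06-fold higher in upper layers (log2 1.61, SE 0.15, adjusted p = 0.00019). Rasgrf2, an exchange factor that activates Ras, had 4109 and 5420.0 in upper layers and 989 and 1619 in deep layers (log2 1.90, SE 0.39, adjusted p = 0.0477). The deep layer libraries of Rasgrf2 differed from each other more than those of Nectin3 did. Pou3f2, a POU domain transcription factor also known as Brn2, had 1278 and 1200.0 in upper layers and 609 and 572 in deep layers (log2 1.07, SE 0.19, adjusted p = 0.0218).

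Several layer 2/3 genes had large differences that did not pass. Calb1, the calcium-binding protein calbindin, had 2845 and 2710.5 in upper layers and 376 and 542 in deep layers, with no overlap between the layers. Its log2 difference was 2.62 (SE 0.55, adjusted p = 0.0513), and the bulk libraries alone gave an adjusted p of 1.27e-05. Wfs1, an endoplasmic reticulum protein, had 1017 and 1577 in upper layers and 535 and 738 in deep layers (adjusted p = 0.22). One member ran the other way: Cdh13, a cadherin anchored by a lipid, had 621 and 771 in upper layers, against 1520.3 and 1805 in deep layers (log2 -1.26, adjusted p = 0.131).

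Of 12 layer 4 genes, 2 rose, none fell, and the median was 0.90, where the full model called 0.162% of all tested genes higher. The bulk libraries alone called 6 higher and 0 lower, against 2.57% and 2.41% of all tested genes. Rorb, a nuclear receptor of layer 4 neurons, had 11982 and 14108 in upper layers and 4264 and 5015 in deep layers (log2 1.49, SE 0.31, adjusted p = 0.0468). Kcnh5, a voltage-gated potassium channel subunit, had 5677 and 5601 in upper layers and 1693 and 2089.7 in deep layers, 3.00-fold higher in upper layers (log2 1.58, SE 0.28, adjusted p = 0.0213). In both genes the upper layer libraries lay far above the deep ones. Unc5d, a netrin receptor family member, had 3729 and 4137 in upper layers and 1165 and 1561 in deep layers (log2 1.54, adjusted p = 0.105), and did not pass. Where the cut ran relative to layer 4 is not stated.

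The remaining genes among the 15 largest increases had varied molecular roles. Pcdh20, a protocadherin, had 617 and 766 in upper layers and 139 and 230.0 in deep layers (log2 1.94, SE 0.34, adjusted p = 0.0208), and was the only 1 of 27 cadherin and protocadherin genes called, against 3 higher and 4 lower from the bulk libraries alone and 1 higher and 3 lower by edgeR. Of all tested genes the full model called 0.162% higher, and the bulk libraries alone 2.57% higher and 2.41% lower. Evc2, a ciliary protein of the hedgehog pathway, had 162 and 361 in upper layers and 54.04 and 82.2 in deep layers (log2 1.84, SE 0.34, adjusted p = 0.0266). Its lowest upper layer library was still about 2-fold above its highest deep layer library. Kitl, the ligand of the KIT receptor, had 1367 and 1237 in upper layers and 444 and 512 in deep layers (log2 1.45, SE 0.28, adjusted p = 0.0316). Rtn4rl1, a receptor of the Nogo receptor family that limits axon growth, had 3484 and 4082 in upper layers and 1189 and 1785 in deep layers (log2 1.37, SE 0.26, adjusted p = 0.0279). March4, a membrane-bound ubiquitin ligase, and Spats2l rose by log2 1.33 and 1.23.

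Gucy1a1, a subunit of the guanylate cyclase that responds to nitric oxide, had 2951 and 3441 in upper layers and 1255 and 1336 in deep layers (log2 1.30, SE 0.21, adjusted p = 0.0108). Pde7b, a phosphodiesterase that breaks down cyclic AMP, had 1507 and 1675 in upper layers and 598 and 628 in deep layers (log2 1.37, SE 0.19, adjusted p = 0.0032). In both genes the libraries of each layer lay close together. Pde1a, a calmodulin-dependent phosphodiesterase, fell, with 1651 and 1756 in upper layers and 5519 and 4722 in deep layers (log2 -1.58, SE 0.27, adjusted p = 0.0177), and Pde4a, a cyclic AMP phosphodiesterase, fell by less (log2 -0.89, SE 0.18, adjusted p = 0.0424).

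Tle1 and Tle3, corepressors of the same family as Tle4, rose. Tle1 had 989.8 and 1023 in upper layers and 452 and 591 in deep layers (log2 0.96, SE 0.19, adjusted p = 0.0325), and Tle3 had 1671 and 1739.9 in upper layers and 811 and 886 in deep layers (log2 1.01, SE 0.17, adjusted p = 0.0178). Tle4 fell 3.59-fold (log2 -1.84, SE 0.16, adjusted p = 0.000137), and the other members of the family were not read as a list. Ddit4l, an inhibitor of mTOR signalling, rose (627 and 782 in upper layers, 228 and 267 in deep layers, 2.83-fold), and Deptor, an mTOR-binding inhibitor listed among layer 5 genes, fell (318 and 322 in upper layers, 878 and 810.2 in deep layers, 2.63-fold). Among other genes that rose were Prkca, protein kinase C alpha (log2 1.20), whose exons overlap Apoh, Ppp3ca, the catalytic subunit of calcineurin (log2 0.91), and Homer2, a scaffold of postsynaptic glutamate receptors (log2 0.94).

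**Figure D2:**
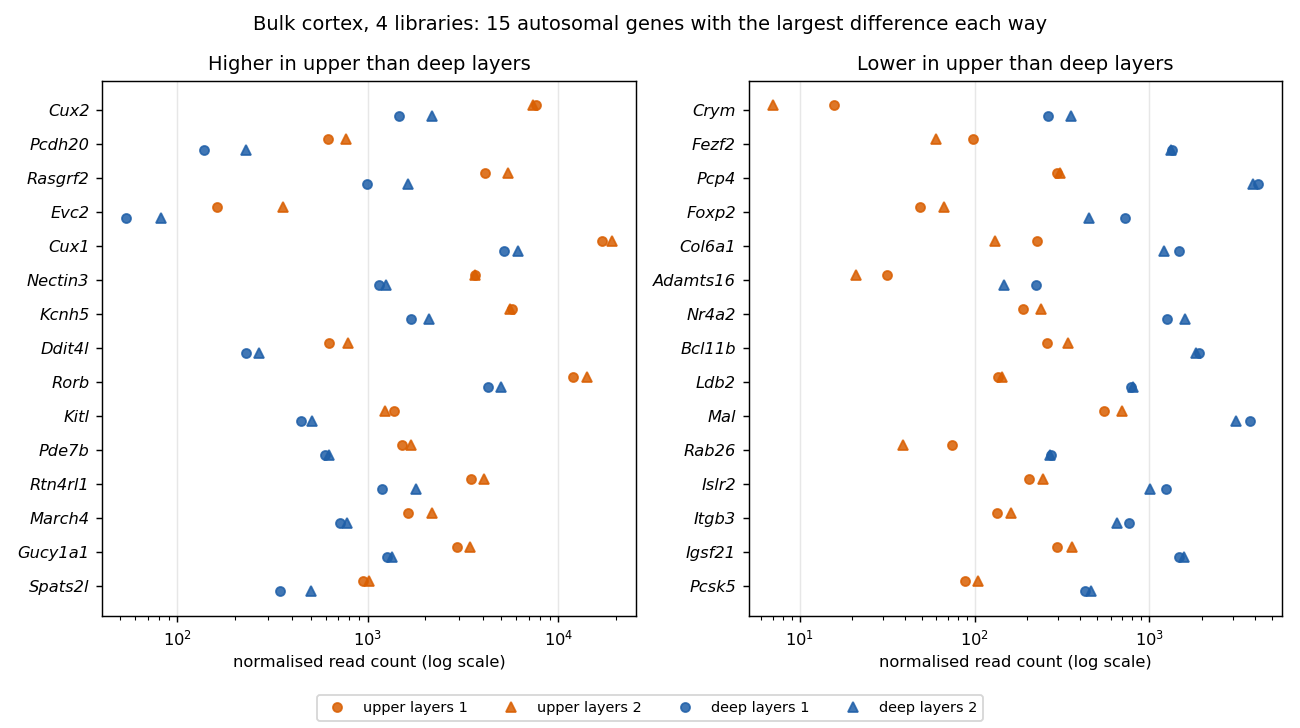
Normalised read count (log scale) of the 15 genes with the largest log2 difference in each direction, among called autosomal genes with a mean of at least 100 in either layer; orange symbols are the 2 upper layer libraries and blue symbols the 2 deep layer libraries. No upper layer library overlaps a deep layer library, and Crym has the widest gap, with 15.7 and 7.01 in upper layers against 264 and 355 in deep layers.

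Genes of layer 5 neurons lay on the lower side. Of 17 tested, 7 fell (Crym, Fezf2, Pcp4, Bcl11b, Ldb2, Deptor and Etv1), none rose, and the median log2 difference was -1.43. The bulk libraries alone called 12 lower and 0 higher, against 2.41% and 2.57% of all tested genes. The full model called 0.314% of all tested genes lower. Crym, the thyroid hormone binding protein mu-crystallin, had 15.7 and 7.01 in upper layers and 264 and 355 in deep layers (log2 -4.73, SE 0.80, adjusted p = 0.0173). Fezf2 fell 17.2-fold (log2 -4.11, SE 0.55, adjusted p = 0.00278).

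Bcl11b, the zinc finger factor also known as Ctip2 that acts in corticospinal neurons, had 259 and 342 in upper layers and 1929 and 1838 in deep layers (log2 -2.66, SE 0.45, adjusted p = 0.0173). Ldb2, a cofactor of LIM domain transcription factors, had 135 and 143 in upper layers and 789.5 and 806 in deep layers (log2 -2.51, SE 0.39, adjusted p = 0.00953). Pcp4, a regulator of calmodulin whose exons overlap Igsf5, had 298 and 308 in upper layers and 4192 and 3919 in deep layers (log2 -3.74, SE 0.72, adjusted p = 0.0319). In all 3 genes the lowest deep layer library was more than 4-fold above the highest upper layer library. Etv1, an ETS family factor, differed less, with 1192 and 1156 in upper layers and 2388 and 2613 in deep layers (log2 -1.09, SE 0.23, adjusted p = 0.0497). Other members did not pass. Parm1 had 1514 and 1808 in upper layers and 1903 and 2328 in deep layers (log2 -0.35), and Qrfpr had overlapping values (log2 0.65).

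Of 18 layer 6 genes, 7 fell (Crym, Foxp2, Igsf21, Thsd7b, Tle4, Zfpm2 and Hs3st4), none rose, and the median was -1.56. The full model called 0.314% of all tested genes lower. The bulk libraries alone called 14 of the list lower and 0 higher, against 2.41% and 2.57% of all tested genes. Foxp2 fell 9.83-fold (log2 -3.30, SE 0.38, adjusted p = 0.00079). Thsd7b had 112 and 125 in upper layers and 589.8 and 495 in deep layers (log2 -2.18, SE 0.26, adjusted p = 0.00112). Igsf21, an adhesion molecule of inhibitory synapses, had 298 and 362 in upper layers and 1469 and 1574 in deep layers (log2 -2.21, SE 0.43, adjusted p = 0.0354). Each of these lay well apart between the layers. Syt6, a synaptotagmin, had a larger difference, 62.7 and 77.1 in upper layers and 1923 and 1374 in deep layers, yet an adjusted p of 0.0743 (log2 -4.53, SE 1.00), and 1.31e-06 from the bulk libraries alone. Tbr1, a T-box factor of layer 6 that other excitatory neurons also express, had 3361 and 4382 in upper layers and 4589 and 4576 in deep layers (log2 -0.26). Foxp1 had 6166 and 7207 in upper layers and 5871 and 6077 in deep layers (log2 0.16).

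Of 12 genes of layer 6b and the subplate, 3 fell, none rose, and the median was -0.70. The full model called 0.314% of all tested genes lower. The bulk libraries alone called 4 of the list lower and 0 higher, against 2.41% and 2.57% of all tested genes. Nr4a2, the orphan nuclear receptor Nurr1, had 189 and 240.4 in upper layers and 1256 and 1598 in deep layers (log2 -2.73, SE 0.30, adjusted p = 0.000671). Adamts16, a secreted metalloprotease, had 31.3 and 21.03 in upper layers and 223 and 148 in deep layers (log2 -2.77, SE 0.31, adjusted p = 0.000671). Tmem163, a zinc transporter whose exons overlap Mgat5, fell less (489 and 456 in upper layers, 1218 and 1069 in deep layers, log2 -1.27, SE 0.23, adjusted p = 0.0218). Other subplate genes did not pass. Ccn2, a secreted matrix-associated protein, had 56.2 and 24.04 in upper layers and 63.4 and 87.8 in deep layers (adjusted p = 0.855), and Cplx3, a complexin, had 58.1 and 63.1 in upper layers and 102 and 103 in deep layers (adjusted p = 0.983).

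Of 54 axon guidance genes, 3 fell (Sema5a, Sema3e and Nrp1) and none rose, against a median log2 difference of -0.04 over the list. The bulk libraries alone called 8 higher and 13 lower, against 2.57% and 2.41% of all tested genes. The full model called 0.314% of all tested genes lower. Sema3e, a secreted semaphorin, had 264 and 263 in upper layers and 961 and 928 in deep layers (log2 -1.83, SE 0.28, adjusted p = 0.00905). Nrp1, a receptor for secreted semaphorins, had 356 and 416 in upper layers and 1106 and 964 in deep layers (log2 -1.42, SE 0.26, adjusted p = 0.0218). Sema5a, a transmembrane semaphorin, had 861 and 995 in upper layers and 2614 and 2443 in deep layers (log2 -1.45, SE 0.19, adjusted p = 0.00278). These 3 genes stood at least 2-fold lower in upper layers, and the other semaphorins of the list did not pass.

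Sdk2, a sidekick adhesion molecule that matches synaptic partners in the mouse retina, had 480.1 and 456 in upper layers and 1645 and 1497 in deep layers (log2 -1.74, SE 0.19, adjusted p = 0.000671). Itgb3, the integrin beta 3 subunit, had 135 and 162 in upper layers and 768 and 650.4 in deep layers (log2 -2.25, SE 0.26, adjusted p = 0.00079). Col6a1, a chain of collagen VI, had 228 and 131 in upper layers and 1484 and 1219 in deep layers (log2 -2.95, SE 0.58, adjusted p = 0.037). With Adamts16 it made 2 of 44 extracellular matrix genes that fell, and none rose, while the bulk libraries alone called 4 higher and 7 lower. Of all tested genes the full model called 0.314% lower, and the bulk libraries alone 2.57% higher and 2.41% lower. Tnc, the glycoprotein tenascin C, had the opposite direction without passing, 162 and 218 in upper layers and 44.6 and 59.1 in deep layers (adjusted p = 0.173). Pcsk5, a proprotein convertase, Islr2, a membrane protein with leucine-rich repeats whose exons overlap Islr, and Rab26, a GTPase of secretory vesicles whose exons overlap Traf7, completed the 15 largest decreases, at log2 -2.19, -2.31 and -2.31.

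Ion channel and receptor genes gave few calls in the full model, as did all tested genes (0.162% higher and 0.314% lower). The bulk libraries alone called 2.57% of all tested genes higher and 2.41% lower. Of 55 potassium channel genes, Kcnh5 rose and Kcna6, a delayed rectifier subunit, fell (479 and 556 in upper layers, 1235 and 1266 in deep layers, log2 -1.27, SE 0.26, adjusted p = 0.0497), while the bulk libraries alone called 12 higher and 5 lower. None of 30 sodium, calcium and HCN channel genes, 24 glutamate receptor genes, 13 GABA receptor genes, 35 monoamine and acetylcholine receptor genes or 37 neuropeptide and receptor genes was called, against 9 higher and 3 lower, 3 and 5, 3 and 1, 4 and 6, and 6 and 9 from the bulk libraries alone. Cacng3, an auxiliary subunit of AMPA receptors, had 5885 and 7205 in upper layers and 2249.8 and 2991 in deep layers (adjusted p = 0.385). Scn4b, a sodium channel beta subunit, had 104 and 119 in upper layers and 578 and 630.1 in deep layers (adjusted p = 0.152). Sstr2, a somatostatin receptor, had 79.3 and 132 in upper layers and 713 and 753 in deep layers (adjusted p = 0.0641). Each of these 3 had libraries that did not overlap, as had 22.5% of all tested genes with upper layers above and 21.7% with upper layers below.

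Most myelin genes had lower values in upper layers. Of 28 genes of mature oligodendrocytes and myelin, 7 fell, none rose, 27 lay below 0 and the median log2 difference was -1.66. The full model called 0.314% of all tested genes lower. The bulk libraries alone called 25 of the list lower and 0 higher, against 2.41% and 2.57% of all tested genes. The summed value of the 28 genes was 48668 and 47342 in the upper layer libraries, against 146704 and 128823 in the deep layer libraries. In bulk tissue, fewer cells of a type and less RNA per cell cannot be told apart.

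Mbp fell 3.47-fold (log2 -1.79, SE 0.24, adjusted p = 0.00268). Mal, a proteolipid of compact myelin, had 551 and 695 in upper layers and 3744 and 3112 in deep layers (log2 -2.46, SE 0.47, adjusted p = 0.0316). Cnp, an enzyme of the myelin cytoplasm whose exons overlap Dnajc7, had 3967 and 3928 in upper layers and 10094 and 9257 in deep layers (log2 -1.29, SE 0.21, adjusted p = 0.0136). The deep layer libraries of all 3 lay above the upper layer libraries by at least 2-fold. Tspan2, a tetraspanin of oligodendrocytes whose exons overlap the antisense gene Tspan2os, had 1878 and 1887 in upper layers and 6289 and 5202 in deep layers (log2 -1.60, SE 0.23, adjusted p = 0.00522). Cldn11, the claudin of myelin tight junctions, had 605 and 565 in upper layers and 2151 and 2014 in deep layers (log2 -1.83, SE 0.37, adjusted p = 0.0437). Ugt8a, which makes the myelin lipid galactosylceramide, and Gsn, the actin-severing protein gelsolin, fell as well, at log2 -1.69 and -1.47.

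Myelin genes that did not pass included Mog, a glycoprotein on the outer surface of myelin, at 539 and 389 in upper layers and 2142 and 1834 in deep layers (adjusted p = 0.279). Opalin, a membrane protein of mature oligodendrocytes, had 90.3 and 64.1 in upper layers and 422 and 437 in deep layers (adjusted p = 0.323). Both passed in the bulk libraries alone and had no overlap between the layers, as had 21.7% of all tested genes with upper layers below. Enpp2, the secreted enzyme autotaxin, was the 1 member above 0, with 6222 and 7539.5 in upper layers and 6330.1 and 5794 in deep layers. Earlier stages of the lineage gave no calls, where 0.314% of all tested genes were called lower. Lists this short would seldom hold a call. Of 11 genes of oligodendrocyte precursors and 12 of newly formed oligodendrocytes none was called, with medians of -0.44 and -0.38. The bulk libraries alone called 4 of each list lower, against 2.41% of all tested genes. Olig1, a transcription factor of the whole lineage, had 1393 and 1465 in upper layers and 2770.3 and 2721 in deep layers (adjusted p = 0.259). Among 22 cholesterol synthesis genes none was called, also from the bulk libraries alone, and the median was -0.25.

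Sox10 drives myelin genes by binding short SOX motifs, so the promoters of the myelin genes were read for the letters ACAATG or ACAAAG on either strand. RefSeq promoter windows (GRCm38.p6, 250 bases before to 50 after each start) were matched for 20 of the 28 genes, and 12 of their 28 windows (42.9%) held a match, against 8831 of 31396 autosomal windows (28.1%). Of these 12 windows, 2 are overlapping windows of Mag that hold the same match. The same share was 12 of 81 windows (14.8%) of the genes called lower and 3 of 31 (9.68%) of those called higher. Printed below are the windows of Cnp (chr11:100574689-100574988, plus strand) and of the downstream start of Tspan2 (chr3:102734965-102735264, plus strand), which were chosen after the matches were seen because both genes fell and both windows hold 1 match. They are the 2 of 9 windows (22.2%) with a match among the 6 called myelin genes that have a window here. The windows of Mal, Cldn11, Ugt8a and Gsn and the upstream window of Tspan2 hold none. Capitals mark the matched letters, and a match is a description and not a binding site.
Cnp: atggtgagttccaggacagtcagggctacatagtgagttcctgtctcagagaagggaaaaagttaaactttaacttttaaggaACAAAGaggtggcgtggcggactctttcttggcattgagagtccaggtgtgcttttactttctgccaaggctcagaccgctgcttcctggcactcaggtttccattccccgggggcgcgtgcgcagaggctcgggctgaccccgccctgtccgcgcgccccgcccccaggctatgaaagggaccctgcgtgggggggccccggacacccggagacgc
Tspan2: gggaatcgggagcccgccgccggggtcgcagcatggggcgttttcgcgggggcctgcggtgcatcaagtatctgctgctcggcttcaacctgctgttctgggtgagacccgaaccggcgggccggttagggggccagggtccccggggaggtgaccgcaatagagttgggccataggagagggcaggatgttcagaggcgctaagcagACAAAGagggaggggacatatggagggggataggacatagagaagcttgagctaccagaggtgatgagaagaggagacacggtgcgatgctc

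Lists of other glia and of vessels gave 1 call, where the full model called 0.162% of all tested genes higher and 0.314% lower. None of 19 astrocyte genes was called, and none from the bulk libraries alone, with a median log2 difference of 0.07. Il33, a cytokine of astrocytes and oligodendrocytes, had 220.3 and 343 in upper layers and 425 and 443 in deep layers (adjusted p = 0.646). The X-linked gene Chrdl1, a secreted BMP antagonist of astrocytes that lies outside the autosomal set, had 1225 and 948 in upper layers and 469.9 and 465 in deep layers (adjusted p = 0.0646). Aldh1l1, the gene whose promoter drives the reporter, had 885 and 681 in upper layers and 1116 and 987 in deep layers (adjusted p = 0.791), and Slc1a3, a glutamate transporter, had 15645 and 14569 in upper layers and 13382 and 12488 in deep layers (adjusted p = 1). None of 15 microglia, 12 endothelial, 12 mural, 5 blood cell or 6 ependymal and choroid plexus genes was called, with medians between -0.56 (blood cells) and -0.09 (microglia), and the bulk libraries alone called 1 endothelial gene lower and no other. None of 11 neuroblast and progenitor genes or 9 candidate layer astrocyte genes was called, with medians of 0.26 and 0.02 and 1 neuroblast gene lower from the bulk libraries alone. The beta globin gene Hbb-bs had 1155 and 120.2 in upper layers and 1203 and 250.4 in deep layers, so it differed between the numbers 1 and 2 more than between the layers. Of 14 genes of white matter and fibrous astrocytes, Cryab, a small heat shock protein whose exons overlap Hspb2 and which oligodendrocytes also express, fell (649.7 and 533 in upper layers, 2861 and 2530.4 in deep layers, log2 -2.19, SE 0.25, adjusted p = 0.00079), and the bulk libraries alone called 1 gene of the list higher and 1 lower. Gfap, the intermediate filament of reactive and fibrous astrocytes, had 421 and 255 in upper layers and 457 and 354 in deep layers, which overlap.

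None of the listed genes of inhibitory neurons was called in either direction. The full model called 0.162% of all tested genes higher and 0.314% lower, so lists this short would seldom hold a call. Among 9 general GABAergic genes the median was 0.07, and Gad1, which makes GABA, had 1367 and 1811 in upper layers and 1114 and 1675 in deep layers. Among 14 genes of interneurons from the medial ganglionic eminence (MGE) the median was -0.33, and the bulk libraries alone called 0 of either list. Sst, the peptide somatostatin, had 1726 and 2862 in upper layers and 2528 and 4892 in deep layers, with overlapping libraries. Among 15 genes of interneurons from the caudal ganglionic eminence (CGE) the median was 0.04. The bulk libraries alone called 4 of them higher and 0 lower, against 2.57% and 2.41% of all tested genes, and edgeR called 1 higher. Lamp5, a lysosomal membrane protein of these cells that layer 2/3 neurons also express, had 4706 and 7002 in upper layers and 1221 and 2080.5 in deep layers (log2 1.85, adjusted p = 0.531). Vip, a neuropeptide of these cells, had 382 and 529.9 in upper layers and 106 and 155 in deep layers (adjusted p = 0.914). Both lay higher in each upper layer library without passing. Of the 15 genes 9 lay above 0 and 6 below, the lowest at log2 -1.12, so these 2 do not stand for the list.

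Lists of tissue next to the cortex were read for what the dissection carried over. None of 12 meningeal fibroblast genes was called, also from the bulk libraries alone, and their median was 0.34. Their summed value was 3816 and 3290 in the upper layer libraries, against 2116 and 2391 in the deep layer libraries, and Ptgds, which makes prostaglandin D2 and which oligodendrocytes also express, had 1439.5 and 1037 in upper layers and 119 and 379 in deep layers. None of 13 striatal, 12 hippocampal or 9 thalamic genes was called, with medians of -0.47, 0.67 and 0.13. The bulk libraries alone called 2 striatal genes higher and 1 lower, 4 hippocampal genes higher and 0 lower, and 2 thalamic genes higher and 0 lower. Of all tested genes they called 2.57% higher and 2.41% lower. The part of these tissues in the layer differences was not tested. Of 9 genes of layer 1 and its Cajal-Retzius cells none was called (1 higher and 1 lower from the bulk libraries alone), and Trp73, which marks Cajal-Retzius cells, was at or near 0 (0.922 and 0 in upper layers, 2.35 and 0 in deep layers).

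**Figure D3:**
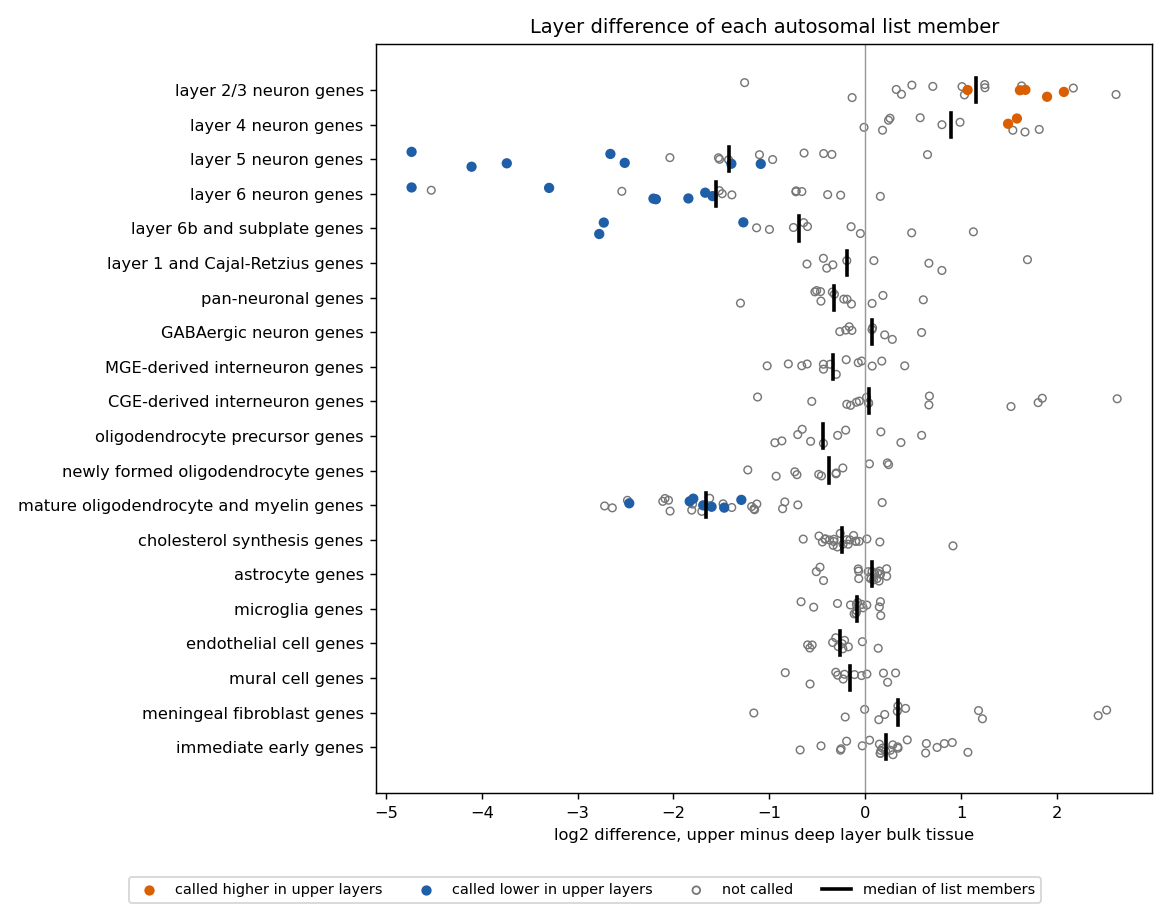
Log2 difference, upper minus deep layer bulk tissue, of each tested autosomal member of 20 gene lists, with the list median as a black bar; filled points were called (orange higher, blue lower in upper layers) and open points were not. The medians of layer 2/3 and layer 4 genes lie at 1.16 and 0.90, those of layer 5, layer 6 and myelin genes at -1.43, -1.56 and -1.66, and that of astrocyte genes at 0.07.

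A few called genes rest on low counts. Ptx4, a pentraxin family gene, had 11.98 and 12.02 in upper layers and was at 0 in both deep layer libraries, and Slc5a11, a sodium-coupled inositol transporter, was at 0 in both upper layer libraries and had 7.05 and 8.31 in deep layers. Sp7, a zinc finger factor known from bone, had 3.69 and 2.00 in upper layers and 46.99 and 42.5 in deep layers. Gm10334 and Prss3 belong to the trypsinogen family of near-identical copies, and both were at 0 in upper layers, with 38.8 and 45.3 in deep layers for Gm10334 and 19.97 and 23.1 in deep layers for Prss3. Reads can be split between such copies, so these 2 calls are uncertain.

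The layer differences of the bulk tissue were then set beside those of the sorted cells of the same layers. Of the 34 genes that rose in bulk tissue, 27 (79.4%) had a positive layer difference in non-astrocytes, against 46.3% of all tested genes, and 13 (38.2%) in astrocytes, against 52.2%. Of the 66 that fell, 47 (71.2%) had a negative one in non-astrocytes, against 53.6% of all, and 36 (54.5%) in astrocytes, against 46.4%. The median log2 difference of the genes that rose was 1.26 in bulk tissue and 0.16 in non-astrocytes, and that of the genes that fell was -1.69 in bulk tissue and -0.21 in non-astrocytes. Since the genes were chosen for passing in bulk tissue, their bulk values are large by that choice, and the sizes are not compared. The summed level of 13 pan-neuronal genes averaged 11624 in the non-astrocyte libraries and 191055 in bulk tissue, and its part in these values was not tested.

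The difference between the layer differences was tested directly. Against astrocytes 29 of 21036 genes were called (0.138%), 11 with a more positive and 18 with a more negative difference in bulk tissue, and 24 of them were also called in bulk tissue. With a block for the replicate number, 109 were called. Against non-astrocytes 11 were called (0.0523%), 2 more positive and 9 more negative, and 9 of them were also called in bulk tissue. Both tests hold the same bulk layer difference, which favours genes called in bulk tissue. Leaving out any 1 of the 4 bulk libraries gave 0 to 7 calls against astrocytes and 0 against non-astrocytes.

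Tle4, Nectin3 and Sdk2 were among the first 5 by p in both tests, which share the same bulk values and so are not independent. Nectin3 averaged 1242 ± 24.5 in upper layer and 1184 ± 4.16 in deep layer non-astrocytes (SD, n = 2 each). Its layer difference was 1.61 in bulk tissue, 0.07 in non-astrocytes and 0.04 in astrocytes, all on the log2 scale. Bulk minus non-astrocytes was 1.55, SE 0.22, adjusted p = 0.0189, and bulk minus astrocytes 1.57, SE 0.20, adjusted p = 0.0057.

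Tle4 averaged 1133 ± 135 in upper layer and 1325 ± 42.6 in deep layer non-astrocytes, a log2 difference of -0.23, against -1.84 in bulk tissue. The difference between them was -1.61, SE 0.23, adjusted p = 0.0219. Sdk2 had a log2 layer difference of -1.74 in bulk tissue and 0.14 in non-astrocytes (bulk minus non-astrocytes -1.88, SE 0.27, adjusted p = 0.0219). Adamts16 averaged 905 ± 9.63 in upper layer and 873 ± 23.8 in deep layer non-astrocytes, well above its bulk values and with a layer difference of 0.05 (bulk minus non-astrocytes -2.83, SE 0.44, adjusted p = 0.0374). Of the genes named against astrocytes, Cux1 differed by 1.73, SE 0.22, adjusted p = 0.0057 and Nr4a2 by -2.94, SE 0.39, adjusted p = 0.0084.

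Reln, the secreted protein reelin, was called against non-astrocytes but not in bulk tissue. It had 1196 and 1346 in upper layer bulk tissue and 1412 and 1820.0 in deep layer bulk tissue, a log2 difference of -0.34. In non-astrocytes it averaged 265 ± 2.43 in upper layers and 62.6 ± 2.74 in deep layers (SD, n = 2 each), a log2 difference of 2.06. The difference between the layer differences was -2.40, SE 0.31, adjusted p = 0.0142.

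**Figure D4:**
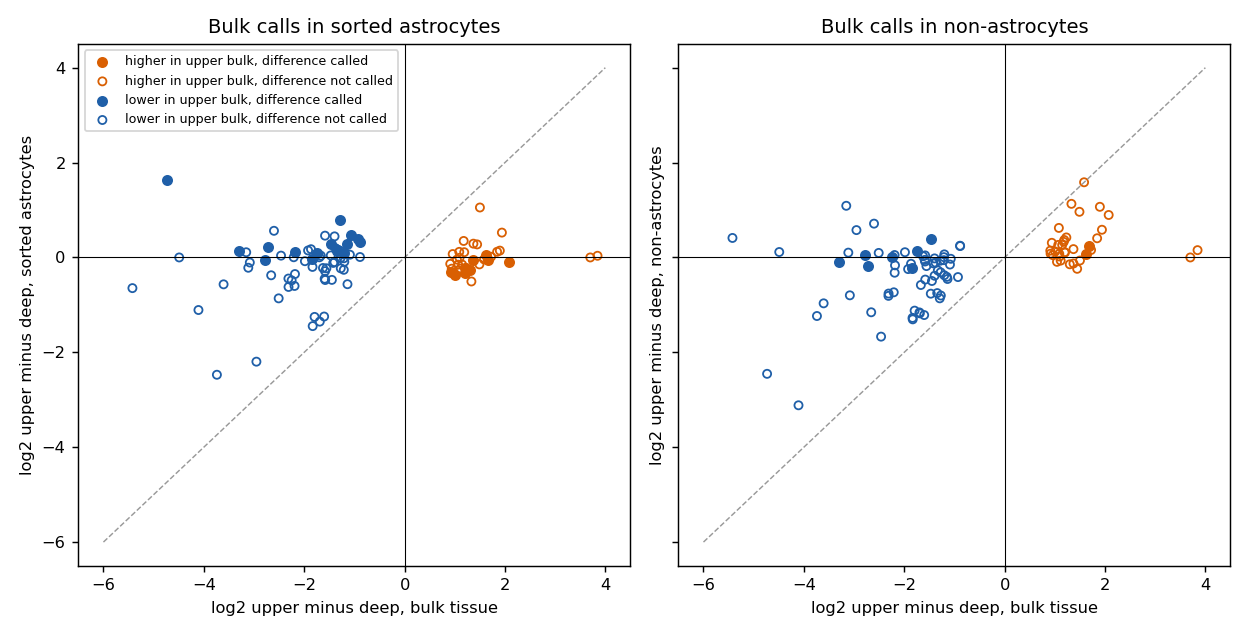
Log2 difference, upper minus deep layers, in bulk tissue (horizontal axis) against that in sorted astrocytes (left) and non-astrocytes (right), for the 100 autosomal genes called in bulk tissue; filled points are genes whose layer differences were called different, and the dashed line marks equal differences. The genes were chosen by the horizontal axis, so their spread along it follows from the choice. Nectin3, for one, lies at 1.61 in bulk tissue and 0.07 in non-astrocytes.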

How the data were processed

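Groups were read from the sample titles. The submitters' processing notes name TopHat2 2.0.11 and HTSeq 0.6.1p1, with DESeq2 and CASAVA, and the GRCm38 build. Per the labels' protocols, RNA was amplified with the NuGEN RNA-Seq V2 kit before sequencing. The deposited values are a signal, gene counts divided by the authors by 1 size factor per library, and in each of the 14 libraries 100% of values were whole multiples of 1 read within 1e-06. Use of strand in counting is not stated, so overlapping genes are marked. Identifiers of 32007 genes matched GENCODE M21 (GRCm38).

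Limma 3.58.1 in R 4.3.3, with intensity trend and robust moderation, was fitted to log2(value + 1) as 1 model of 6 group means (8 residual degrees of freedom), so fold changes of low genes are understated. Values had to reach 10 in at least 2 libraries. EdgeR 4.0.16 and DESeq2 1.42.0 on the recovered reads, other pseudocounts, filters, scaling, a replicate block and left-out libraries were alternatives. The script was tested on simulated data.

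Named genes were the 15 called genes with the largest log2 difference each way (mean at least 100 in either layer), the 4 members with the smallest p of each of 38 lists, the 6 markers, Il33 and Chrdl1, and the first 5 genes by p of each difference between layer differences. Other genes, such as Pde1a, Tle1, Calb1, Syt6, Vip, Mog and the low-count genes, were named after their values were seen. Members and lists were chosen with earlier results of these data known. Of 687 listed genes, 658 were autosomal and tested.

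The replicate numbers were checked for pairing over deviations from group means. Same-numbered upper and deep layer astrocyte libraries correlated at 0.458, 0.232 and 0.460, and differently numbered ones at -0.317 to -0.082. What same-numbered libraries share is not stated. Non-astrocytes (0.756) and bulk tissue (0.183) have only 2 pairs each. The main model held no block for the number, and with one the 29 genes called against astrocytes became 109.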

Additional observations from a re-analysis of the deposited data

Results flagged for a closer look

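The results below stand out because the layer difference of a gene in bulk tissue differed, by a test of the difference itself in limma, from that in sorted cells. Values are log2 layer differences (upper minus deep) in bulk tissue minus those in the sorted cells. Against astrocytes the 5 genes with the smallest p were Tle4 (-1.82), Cux1 (1.73), Nectin3 (1.57), Nr4a2 (-2.94) and Sdk2 (-1.85). Against non-astrocytes they were Reln (-2.40), Nectin3 (1.55), Tle4 (-1.61), Sdk2 (-1.88) and Adamts16 (-2.83). The 2 tests share the bulk values, so a gene named in both is not seen independently. The bulk libraries were not dissociated and the sorted ones were, and the part of that in these differences was not tested.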

How the results depend on the processing

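The counts of called genes moved more with the model than with TMM scaling (33 and 68), the 1 other scaling run. Against 34 higher and 66 lower, limma gave 73 and 147 with a pseudocount of 5, 22 higher without trend and robust moderation, 541 and 508 on the 4 bulk libraries alone, and 79 and 128 without deep layer astrocyte replicate 2. EdgeR gave 54 and 105, or 673 and 605 on the bulk libraries alone, and DESeq2 gave 173 and 243. Leaving out 1 bulk library, which leaves a lone sample assumed to vary like the other groups, gave 2 to 5 higher and 7 to 12 lower. Of the 34 and 66 genes, 33 and 62 were also called by edgeR and 33 and 64 on the bulk libraries alone.

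With the replicate block the counts were 99 and 151 (edgeR 281 and 325, and 486 and 406 for limma on the bulk libraries alone). With 2 bulk pairs these counts are no evidence of pairing. The Y-linked genes did follow the number. Eif2s3y had 6.45 and 12.9 in number 1 of upper and deep layers, against 658 and 615 in number 2. Ddx3y had 4.61 and 4.70, against 329 and 317. Whether same-numbered bulk libraries share animals is not stated, and the main test held no block for the number. The 29 genes that differed from astrocytes became 109 with the block (edgeR 244), 72 with a pseudocount of 5, 47 with edgeR, 182 with DESeq2 and 0 to 69 without 1 library. The 11 that differed from non-astrocytes became 5 with a pseudocount of 0.5, 17 with edgeR, 50 with DESeq2, 45 with the edgeR block and 0 to 6 without 1 library. At an unadjusted p below 0.05 the numbers were 1733 and 860 of 21036 tested genes. With no difference anywhere a share of about 0.05 would pass, and 860 is below that share.

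None of the 33 named genes followed through the alternatives changed direction, which is no separate support. The 15 largest each way were chosen as called genes without overlap between the layers, so leaving out 1 bulk library could not turn them. Leaving out a sorted library does not change the bulk difference itself. Cux1, Nectin3, Tle4, Nr4a2, Adamts16, Itgb3 and Foxp2 stayed below 0.05 under each, also without any 1 library, while 20 to 25 of the 33 lost their call without 1 bulk library and 15 without trend and robust moderation. With 2 libraries a layer, and genes of low counts such as Ptx4, a gene that missed the threshold is not shown to be level.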

Other observations

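Activity-dependent genes and general neuronal genes were also read across the layers. None of 25 immediate early genes was called, with a median log2 difference of 0.21, and the bulk libraries alone called 5 higher and 0 lower. Of all tested genes the bulk libraries alone called 2.57% higher and 2.41% lower. Egr1, a zinc finger factor induced by neuronal activity, had 27193 and 29078 normalised counts in upper layers and 17028 and 16408 in deep layers (adjusted p = 0.15, limma), and Fosl2, a relative of Fos, had 2198 and 2629 in upper layers and 1156 and 1417 in deep layers (adjusted p = 0.281). Neither gene overlapped between the layers, as was true of 22.5% of all tested genes with upper layers above. None of 13 pan-neuronal genes was called, with a median of -0.32 and 1 higher and 2 lower from the bulk libraries alone, and Nefh, the heavy neurofilament chain, had 1431 and 1533 in upper layers and 3393 and 3929 in deep layers (adjusted p = 0.98, and 0.000142 from the bulk libraries alone).

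None of 12 excitatory neuron genes was called, with a median of 0.33, while the bulk libraries alone called 4 higher and 1 lower and edgeR 1 higher and 1 lower. Of all tested genes the bulk libraries alone called 2.57% higher and 2.41% lower, and edgeR 0.257% and 0.499%. Slc17a6, a vesicular glutamate transporter, had 732 and 899 in upper layers and 199 and 284 in deep layers (adjusted p = 0.109). Neurod1, a helix-loop-helix factor, had 335 and 479.8 in upper layers and 77.5 and 114 in deep layers (adjusted p = 0.355). Its relative Neurod6 ran the other way, with 465 and 491 in upper layers and 981 and 1117 in deep layers (adjusted p = 0.284). The libraries of these 3 genes did not overlap between the layers. That also held for 22.5% of all tested genes with upper layers above and 21.7% with upper layers below.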
